A study of Mus musculus with 4 samples.

Results

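Trp53 and 9 genes that lie near it on mouse chromosome 11 were examined in sarcomas of W/+ mice, to ask whether the Trp53 transcript level moved alone or together with its neighbors. The neighbors were Wrap53, Atp1b2, Efnb3, Polr2a, Eif4a1, Senp3, Kdm6b, Fxr2 and Sat2, matched by gene symbol. These were 10 of the 56691 genes in the deposited table, and each had more than 3 counts in every sarcoma. The set was chosen by name with the ATO and PBS values of these same sarcomas already known, so the differences below are descriptions and carry no test.

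RNA-seq was available for 4 sarcomas, 2 from mice given arsenic trioxide (ATO 1 and ATO 2) and 2 labelled as PBS controls (PBS 1 and PBS 2). All 4 came from heterozygous mice labelled p53R282W/+, which carry 1 mutated and 1 wild-type copy of Trp53, so the controls hold the mutation as well. The label uses the human residue number, and in mouse numbering the same arginine change is R279W. The allele was a germline knock-in made with CRISPR/Cas9, so every cell of the animal carries it. Treated mice drank water with 35 mg ATO per L from day 90 onward. The age at which each tumor was taken, the sarcoma subtype and any pooling of animals are not given in the sources used here. The sources also differ on the RNA extraction and library kits, and the labels of all 4 tumors carry a culture recipe for cells in a differentiation medium. Each gene was measured as a read count and as FPKM, the count per kilobase of exons and scaled to the total count of the tumor.

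Trp53 encodes the transcription factor p53, which halts the cell cycle or starts apoptosis after stress. The protein level of p53 is held low mainly by Mdm2, which marks it for degradation, so transcript and protein need not move together. In human tumors the gene is often lost in deletions that also remove neighbors such as POLR2A. The neighbors serve unrelated tasks, among them telomerase maturation (Wrap53), messenger RNA synthesis (Polr2a) and translation (Eif4a1). Gene copy number was not analysed here, and the read counts sum the mutant and wild-type alleles.

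Total counts lay between 15259695 and 18134000. The mitochondrial share of counts was 14.7% in ATO 2 and 1.98% to 2.59% elsewhere. Over the 17188 genes that passed the filter on low counts, edgeR's quasi-likelihood test with Benjamini-Hochberg adjustment called 0 genes (0% of those tested). An unadjusted p under 0.05 was found for 1463 genes, while DESeq2 called 754 and edgeR without the filter 541. A comparison of 2 against 2 tumors cannot go below an exact two-sided p of 0.333 for a single value. The summed FPKM of 7 mesenchymal markers lay between 1293 and 5275 in the 4 tumors with none at 0. No other tissue was compared, so these sums do not test the sarcoma label.

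The mutated residue lies in exon 8 of Trp53. In the Trp53-203 transcript of the GENCODE M21 annotation, which has 390 codons, the codon of R279W is CGC, an arginine codon, at chr11:69589634-69589636 on the plus strand of GRCm38. The reference sequence around it is shown because the knock-in changes this codon. Whether a tumor had kept both alleles was not analysed here. It spans chr11:69589604-69589666, and the capitals mark the codon.
Trp53 region of R279W: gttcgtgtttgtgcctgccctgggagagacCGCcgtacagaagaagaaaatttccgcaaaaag
In the shorter transcripts Trp53-201 and Trp53-202 the codon numbers are shifted, so that the same number falls on another codon.

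Trp53 and Wrap53 are read away from each other from start sites 109 bases apart, and in the GENCODE annotation 103 bases separate the genes. Promoter windows from 250 bases before to 50 bases after the start site were given by RefSeq (GRCm38.p6) for 7 of the 10 genes, and those of Atp1b2, Efnb3 and Kdm6b are named only. The windows of Trp53 and of 1 Wrap53 start site share 208 bases. The windows of Trp53 and of Eif4a1, the neighbor whose pattern was closest to that of Trp53, are shown, since the former also holds the stretch shared with Wrap53. Capitals mark the letters CACGTG, the core of an E-box, which reads the same on both strands.
Trp53 promoter, chr11:69580109-69580408, plus strand: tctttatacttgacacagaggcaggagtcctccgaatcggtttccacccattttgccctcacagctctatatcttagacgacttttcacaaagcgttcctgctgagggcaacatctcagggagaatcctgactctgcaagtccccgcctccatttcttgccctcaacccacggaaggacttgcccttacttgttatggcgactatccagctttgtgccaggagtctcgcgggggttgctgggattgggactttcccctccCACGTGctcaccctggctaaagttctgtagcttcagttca
Eif4a1 promoter, chr11:69672374-69672673, minus strand: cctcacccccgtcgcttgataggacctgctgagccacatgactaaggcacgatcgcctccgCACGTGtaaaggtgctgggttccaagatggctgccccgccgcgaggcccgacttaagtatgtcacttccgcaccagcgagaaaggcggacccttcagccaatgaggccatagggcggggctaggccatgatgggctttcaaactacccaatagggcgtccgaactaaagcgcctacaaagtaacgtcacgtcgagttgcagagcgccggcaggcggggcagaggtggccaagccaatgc
CACGTG began 10 bases after the Trp53 start site and 189 bases before that of Eif4a1. The copy in the Trp53 window is the same stretch of DNA that lies 124 bases before the Wrap53 start site. These letters were found in windows of 3 of the 7 genes and in 7.15% of all 32851 windows in the RefSeq table. CCAAT, read on both strands, was in 5 of the 7 and in 37.4% of all windows. GGGCGG on either strand was in 4 of the 7 against 35.7%, and TATAAA on either strand in 2 of the 7 against 13.6%. A gene was counted if any of its windows held the letters, and Senp3 and Wrap53 have more than a single window. The percentages count windows, so counts and percentages are unlike measures and nothing is read from their difference. The 4 motifs were chosen after the sequences were seen, and a match is no evidence of binding.

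Trp53 was lower in both ATO tumors than in both PBS tumors. Its FPKM was 43.6 in PBS 1, 44.6 in PBS 2, 13.7 in ATO 1 and 11.6 in ATO 2, from 3083, 3245, 1005 and 716 counts. The replicates lay close together and the groups were far apart. The levels scaled to library size with TMM factors (CPM) were 163 ± 0.954 in PBS and 56.3 ± 1.53 in ATO (mean ± SD, n = 2 each). The fitted log2 fold change of ATO against PBS was -1.53 (SE 0.37), a level 2.89-fold lower in ATO. The log2 differences of the 4 single ATO to PBS pairs ran only from -1.55 to -1.48. The difference did not stand at the edge of the data, since 6.40% of the tested genes had a lower fitted fold change. Trp53 overlaps a gene without a symbol, ENSMUSG00000121121, which held at most 35 counts. Its processed pseudogene Trp53-ps held between 0.199% and 0.462% of the Trp53 count.

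Of the 10 genes, 5 were lower in both ATO tumors than in both PBS tumors on the CPM scale, where 20.2% of all tested genes were. The same 5 were lower on the FPKM scale, where the share of all tested genes was 29.6%. They were Trp53, Polr2a, Eif4a1, Senp3 and Kdm6b. The other 5, Wrap53, Atp1b2, Efnb3, Fxr2 and Sat2, overlapped between the groups, and 0 were higher in both ATO tumors (19.7% of tested genes on the CPM scale). Because the set was chosen with this contrast in view, nothing is read from these shares. With 1 tumor left out in turn, the 5 genes stayed lower and at most 1 more joined them, Sat2 without PBS 1, Efnb3 without PBS 2 and Fxr2 without ATO 1. The share of all tested genes rose likewise to between 34.5% and 35.5% in these comparisons, so nothing is read from this count either. The median log2 fold change of the 9 neighbors was -0.12, with a range from -0.98 to 1.38, against -0.016 over all tested genes. In bulk tumors fewer cells that express a gene and less RNA per cell cannot be told apart.

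**Figure D1:**
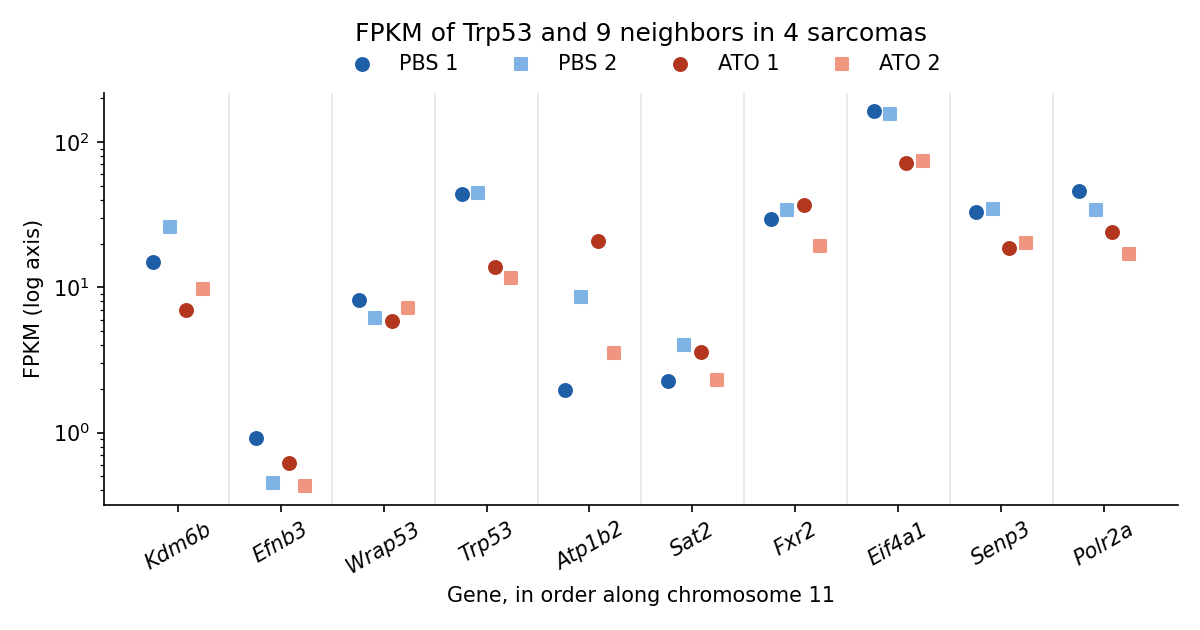
FPKM (log axis) of Trp53 and its 9 neighbors in order along chromosome 11, with 1 point per tumor, blue for PBS and red for ATO. The ATO points of Trp53 (13.7 and 11.6) lie well under its PBS points (43.6 and 44.6), while the points of Wrap53, Atp1b2, Efnb3, Fxr2 and Sat2 intermingle.

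The genes that serve transcription and translation were both lower. Polr2a encodes the largest subunit of RNA polymerase II, and its FPKM was 46.1 in PBS 1, 34.2 in PBS 2, 24.2 in ATO 1 and 17.0 in ATO 2. The groups did not overlap, with a fitted log2 fold change of -0.71 (SE 0.44), and -0.47 without PBS 1. Eif4a1, the RNA helicase that unwinds messenger RNA leaders for the ribosome, was the most abundant of the 10 at 163, 156, 71.7 and 73.5 FPKM in the same order. Its replicates were tight in FPKM, but on the CPM scale ATO 1 was at 310 and ATO 2 at 389. The log2 fold change was -0.85 (SE 0.49), and from -1.02 to -0.71 with a tumor left out. Its pseudogene Eif4a-ps4 on chromosome 1 took between 11.5% and 12.9% as many counts as Eif4a1, with a log2 fold change of -0.75, so reads shared by the pair leave the Eif4a1 level uncertain.

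Both enzymes that act on other proteins were lower as well. Senp3 encodes a protease that removes SUMO from nucleolar proteins, and its FPKM was 33.2 in PBS 1, 34.6 in PBS 2, 18.6 in ATO 1 and 20.3 in ATO 2. Its log2 fold change was -0.51 (SE 0.38), the smallest of the 5, and -0.33 without ATO 1. Kdm6b, which removes methyl groups from lysine 27 of histone H3, had an FPKM of 14.9, 26.0, 7.03 and 9.70 in that order. The PBS tumors differed from each other by 0.78 and the ATO tumors by 0.75 on the log2 scale, with PBS 1 and ATO 1 the lower of their groups, and the fitted log2 fold change was -0.98 (SE 0.50). It ran from -0.55 without PBS 2 to -1.40 without ATO 2 and stayed below 0 with any tumor left out. Kdm6bos, an overlapping antisense gene, held at most 37 counts.

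The gene closest to Trp53 overlapped between the groups. Wrap53, which brings telomerase to Cajal bodies, had an FPKM of 8.16 in PBS 1, 6.18 in PBS 2, 5.83 in ATO 1 and 7.25 in ATO 2. The PBS and ATO ranges crossed, and the fitted log2 fold change was 0.16 (SE 0.51), with its sign turned in the FPKM fits (-0.11 and -0.13), without ATO 2 (-0.17) and without PBS 2 (-0.04). Without ATO 1 it was 0.42 and without PBS 1 0.39, so the direction for Wrap53 was not settled, although it shares a promoter stretch with Trp53. Fxr2, an RNA-binding relative of the fragile X protein, was at 29.6, 33.9, 37.0 and 19.3 FPKM in the same order. The ATO tumors held both its highest and its lowest value, and its log2 fold change was 0.06 (SE 0.42), with the sign turned in the FPKM fits (-0.23 and -0.24). It was -0.31 without ATO 1, -0.02 without PBS 1, 0.15 without PBS 2 and 0.36 without ATO 2. The median of all genes was itself -0.23 and -0.28 in the FPKM fits. With a tumor left out that median ran from -0.16 (without ATO 1) to 0.15 (without PBS 2).

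Sat2, Efnb3 and Atp1b2 had the largest standard errors of the 10. Sat2, named for its likeness to the polyamine acetyltransferase Sat1, had 56 counts in PBS 1, 103 in PBS 2, 93 in ATO 1 and 50 in ATO 2, and FPKM of 2.25, 4.02, 3.60 and 2.30. Each group held a high and a low tumor, and the log2 fold change was 0.16 (SE 0.66), turning to -0.05 and -0.06 in the FPKM fits. In these 2 fits the median of all genes was -0.23 and -0.28. The Sat2 value was -0.19 without PBS 1, -0.04 without ATO 1, 0.62 without PBS 2 and 0.34 without ATO 2. Efnb3, a membrane ligand of Eph receptors known from axon guidance, had 51, 26, 36 and 21 counts in that order, all under 1 FPKM. The exact 95% Poisson interval of its ATO 2 count ran from 13.0 to 32.1 and that of PBS 2 from 17.0 to 38.1, which covers counting error only. Its log2 fold change was -0.12 (SE 0.73), and it ran from -0.55 without PBS 2 to 0.48 without PBS 1, with -0.26 without ATO 1 and -0.01 without ATO 2. Atp1b2, the beta 2 subunit of the sodium pump, known from glia, had an FPKM of 1.95 in PBS 1, 8.62 in PBS 2, 20.8 in ATO 1 and 3.55 in ATO 2. Its spread within groups exceeded that between them, since the log2 fold change of 1.38 (SE 1.05) turned to -0.16 without ATO 1 and was 0.68 without PBS 1, 2.80 without PBS 2 and 2.12 without ATO 2.

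**Figure D2:**
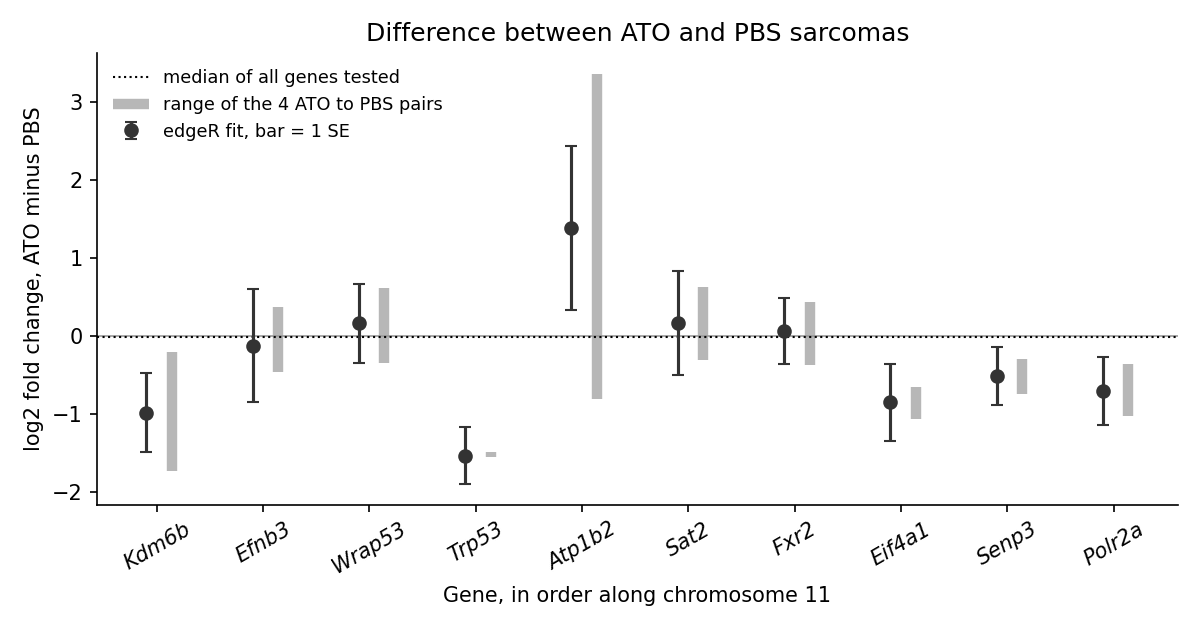
Fitted log2 fold change (ATO minus PBS) of the 10 genes in order along chromosome 11. Black points are edgeR values with bars of 1 SE, grey bars span the 4 single ATO to PBS pairs, and the dotted line is the median of all tested genes. Trp53 has the lowest value (-1.53) and the narrowest pair range (-1.55 to -1.48), and Atp1b2 the widest (-0.81 to 3.36).

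Since FPKM is a level per length, the genes can also be ranked within a tumor group. In PBS tumors Eif4a1 came first (159 ± 4.82 FPKM, mean ± SD, n = 2), followed by Trp53 (44.1 ± 0.707), Polr2a (40.1 ± 8.40), Senp3 (33.9 ± 0.983) and Fxr2 (31.7 ± 3.02). The Polr2a spread covers both Trp53 and Senp3, so these neighbors in the order do not differ beyond their spread. In ATO tumors Eif4a1 (72.6 ± 1.22 FPKM) was followed by Fxr2 (28.2 ± 12.5), Polr2a (20.6 ± 5.11), Senp3 (19.5 ± 1.22), Trp53 (12.7 ± 1.48) and Atp1b2 (12.2 ± 12.2). Trp53 stood at rank 2 in PBS and at rank 5 in ATO, where its mean and that of Atp1b2 differ by less than the Atp1b2 spread.

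Comparing Trp53 with each neighbor inside the same tumor removes the scaling between libraries. The ratio of Trp53 to neighbor FPKM was lower in both ATO tumors than in both PBS tumors for 8 of the 9 neighbors. The same held for 77.1% of the 16640 other tested genes with FPKM above 0 in every tumor, and the low Trp53 level enters every ratio, so the count is a description of Trp53 and not of its neighbors. For Wrap53 it was 5.35 in PBS 1, 7.22 in PBS 2, 2.35 in ATO 1 and 1.60 in ATO 2. For Eif4a1, the neighbor with the tightest replicates in FPKM, it was 0.269, 0.287, 0.191 and 0.158 in that order. Kdm6b was the exception, with ratios of 2.92, 1.71, 1.95 and 1.20 that overlapped. With each gene centred on its mean over the 4 tumors on the log2 scale, Trp53 exceeded the median of its neighbors by 0.62 in PBS 1 and 0.52 in PBS 2, and lay below it in ATO 1 (-0.57) and ATO 2 (-0.62). In the fit the difference between Trp53 and the neighbors' median was -1.41.

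**Figure D3:**
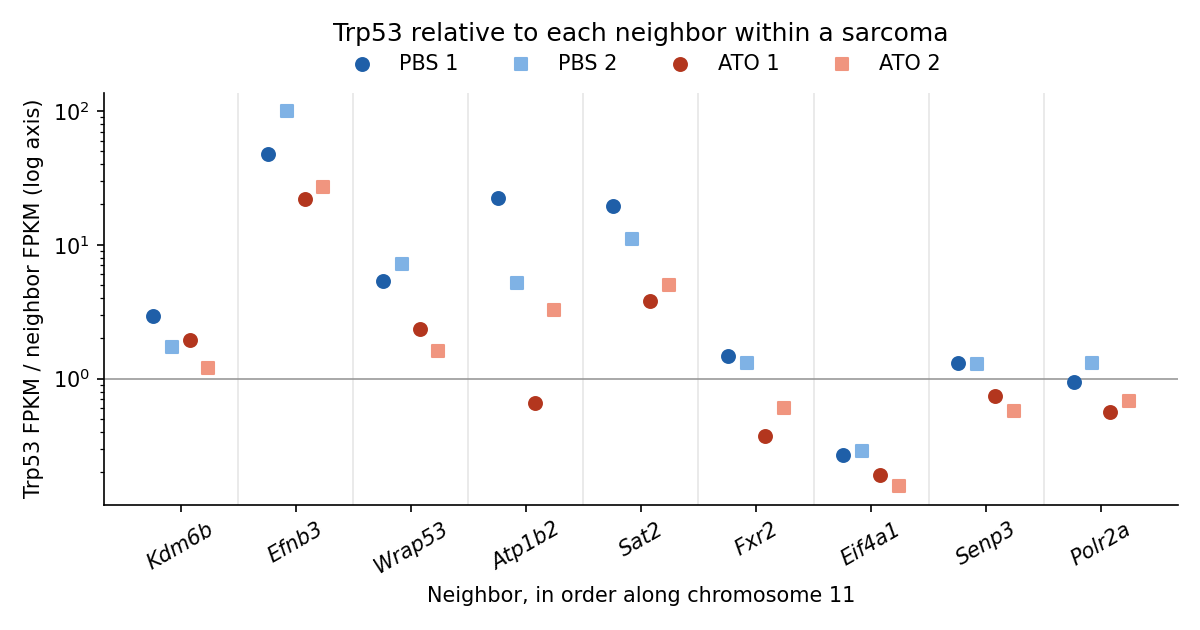
Ratio of Trp53 FPKM to the FPKM of each neighbor (log axis) in each tumor, with neighbors in order along chromosome 11, blue for PBS and red for ATO. Both ATO points lie under both PBS points for every neighbor except Kdm6b, where ATO 1 (1.95) lies above PBS 2 (1.71), as they do for 77.1% of other tested genes.

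Along the chromosome, the 4 lower neighbors were not those next to Trp53. The genes run in the order Kdm6b, Efnb3, Wrap53, Trp53, Atp1b2, Sat2, Fxr2, Eif4a1, Senp3 and Polr2a. Trp53 occupies chr11:69580359-69591873 on GRCm38, Kdm6b begins at -181.9 kb and Polr2a at 153.6 kb from it, counted between the lower coordinates of the genes. The 5 nearest neighbors, from Efnb3 at -26.3 kb to Fxr2 at 52.6 kb, all overlapped between the groups. The 4 lower neighbors lay at -181.9 kb (Kdm6b), 86.6 kb (Eif4a1), 92.8 kb (Senp3) and 153.6 kb (Polr2a).

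The wider region was then read by position instead of by name. Within 500 kb of Trp53 56 genes were tested, with a median log2 fold change of -0.13, and 32 of them had a lower fitted level in ATO (57.1%, against 50.8% of all tested genes). In both ATO tumors 20 of the 56 were lower than in both PBS tumors (35.7%, against 20.2%) and 7 were higher (12.5%, against 19.7%). On chromosome 11 as a whole these shares were 26.3% and 15.7%. The 56 hold all 10 named genes, which were chosen with this contrast known, so nothing is read from these shares. The 46 other genes had a median of -0.12, with 26 lower in the fit. With the named genes included, the median was 0.06 over the 11 genes within 100 kb and -0.09 over 29 genes within 250 kb. It was -0.34 over 86 genes within 1 Mb and -0.14 over 165 genes within 5 Mb. Trp53 lay below each of these medians by more than 1 on the log2 scale. The 17 genes on the lower coordinate side of Trp53 had a median of -0.52, with 13 lower, and the 38 on the higher side a median of 0.03, with 18 lower. Chromosome 11 as a whole had a median of -0.08 over 1341 genes, at rank 9 from the lowest of 20 chromosomes. Among the 21 windows of 1 Mb on chromosome 11 with at least 20 tested genes, the one centred on Trp53 was also at rank 9 from the lowest, in a range of medians from -0.48 to 0.44.

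The largest differences near Trp53 belonged to genes outside the named set. Slc2a4, the insulin-responsive glucose transporter, had an FPKM of 1.78 in PBS 1, 1.87 in PBS 2, 64.9 in ATO 1 and 98.5 in ATO 2 (log2 fold change 5.80, SE 0.60). Ybx2, a nucleic acid binding protein best known from germ cells, had a log2 fold change of 5.09 (SE 1.66), and its FPKM was 19.2 in ATO 2 and 0.94 in ATO 1. Acadvl, a mitochondrial enzyme of fatty acid oxidation, was at 21.04, 23.0, 46.1 and 349 FPKM (log2 fold change 3.56, SE 1.17). In the other direction, Nlgn2, a synaptic adhesion protein, was at 40.0, 25.9, 7.04 and 7.07 FPKM (log2 fold change -1.94, SE 0.44). Tmem95 (-1.97) and 9130213A22Rik (-2.31) were scarcer, with FPKM of at most 2.54. None of these passed the edgeR threshold.

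**Figure D4:**
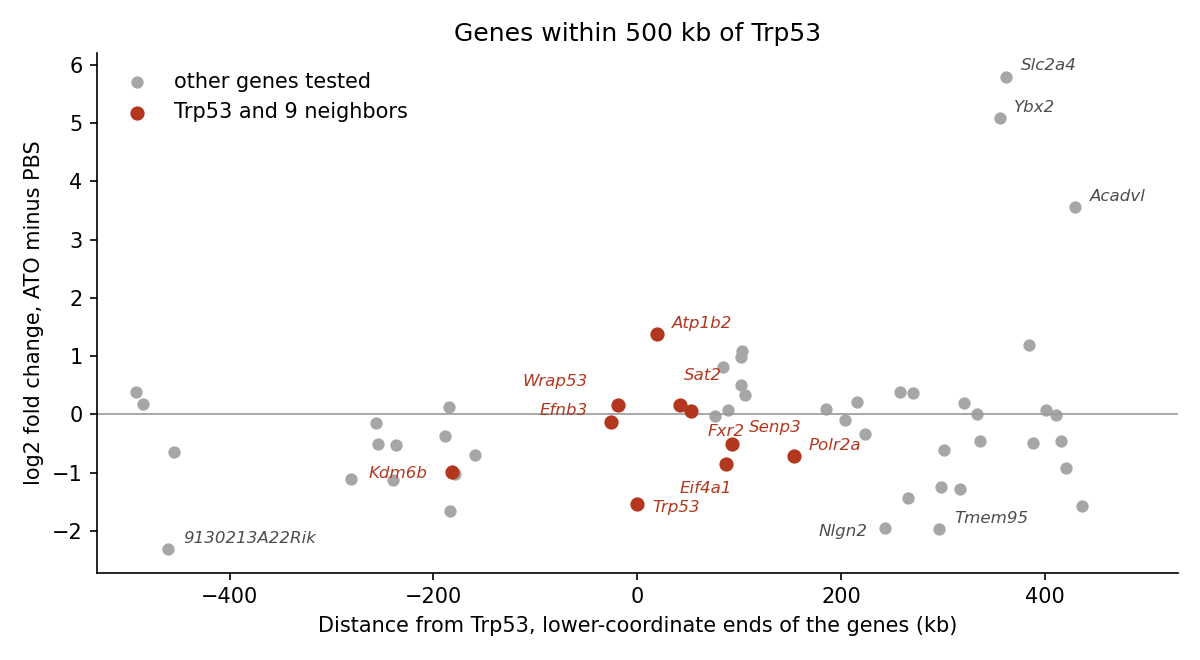
Fitted log2 fold change (ATO minus PBS) of the 56 tested genes within 500 kb of Trp53 against their distance from it in kb, with the 10 named genes in red and the other genes in grey. Trp53 (-1.53) lies below the genes close to it, and the highest points, Slc2a4 (5.80), Ybx2 (5.09) and Acadvl (3.56), lie more than 350 kb away.

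Patterns over the 4 tumors were compared by the Euclidean distance between centred log2(CPM + 1) values, where 0 means equal values in every tumor after centring. The added 1 shrinks the changes of scarce genes, so a small distance does not mean the same fold change. Over the 17187 other tested genes the nearest to Trp53 were Chst2 (0.127), Ccdc92 (0.145), Ly6h (0.153), Foxl1 (0.160) and Galk1 (0.161). Only Galk1, the enzyme that phosphorylates galactose, is on chromosome 11 among these, and its FPKM was 33.2 in PBS 1, 36.2 in PBS 2, 11.3 in ATO 1 and 10.0 in ATO 2. Of the neighbors, Eif4a1 was nearest to Trp53 with a distance of 0.693 and rank 394 of 17187. Polr2a ranked 1007, Kdm6b 1043 and Senp3 1607. The remaining neighbors ranked between 6439 (Efnb3) and 15920 (Atp1b2), so that Wrap53, at rank 8219, stood near the middle of all genes. Such a distance over 4 tumors is a description and carries no test.

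The partners of each neighbor elsewhere in the genome were examined by lists, and 0 genes of any list passed the edgeR test in either direction. Of 24 genes of the p53 family and its regulators 23 were tested, 10 with a higher and 13 with a lower fitted level in ATO (median -0.06). Its largest differences were in Trp63, a p53 homolog of epithelia (6.05), Cdkn2a, whose Arf product inhibits Mdm2 (-3.17), and the p53 kinase Hipk2 (1.87). Hipk2 and Trp63 stood out in ATO 1, at 6.48 and 2.77 FPKM, against at most 1.30 and 0.15 in the other 3 tumors. Of 13 p53 target genes 11 had a higher fitted level, as did 8450 of all 17188 tested genes. Their median was 0.85 where all genes had -0.016. On the CPM scale 5 of the 13 were higher in both ATO tumors than in both PBS tumors and 1 was lower, against 19.7% and 20.2% of all genes. Of these 5, Mdm2 and Aen overlapped between the groups on the FPKM scale. Mdm2 was at 9.37, 18.4, 26.5 and 15.7 FPKM in PBS 1, PBS 2, ATO 1 and ATO 2, and Aen at 3.55, 5.17, 7.46 and 4.43. The largest differences were in the Akt inhibitor Phlda3 (2.75), the cell cycle inhibitor Cdkn1a (2.67) and Ccng1 (2.42). The Trp53 transcript and these 3 targets had opposite signs.

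For Wrap53, 7 of 8 telomerase and Cajal body genes had a lower fitted level (median -0.76), while the sign of Wrap53 itself depended on the tumors kept. The largest differences were in Tert, the catalytic subunit of telomerase (-2.24), and in Gar1 (-1.36) and Nhp2 (-1.14), proteins that bind its RNA. Gar1 was at 27.6 FPKM in PBS 1, 8.83 in PBS 2, 8.11 in ATO 1 and 4.01 in ATO 2, and its groups overlapped on the CPM scale. For Polr2a, 8 of 11 other RNA polymerase II subunits were lower, but their median was only -0.07, with Polr2l at 1.26, Polr2b, part of the catalytic core, at -0.65 and Polr2h at -0.55. For Eif4a1, 4 of 8 genes were lower and 4 higher (median -0.11). Its paralog Eif4a2 had 55.5, 53.8, 77.8 and 58.3 FPKM in PBS 1, PBS 2, ATO 1 and ATO 2 (log2 fold change 0.58), opposite in sign to Eif4a1, whereas Eif4a3 (-0.80), of the exon junction complex, and the helicase cofactor Eif4h (-0.70) had the same sign.

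For Senp3, 6 of 9 SUMO pathway genes were lower (median -0.32), among them the proteases Senp1 (-0.65) and Senp5 (-0.52). For Kdm6b, 2 of 5 genes were lower (median 0.15), and its relative on the X chromosome, Kdm6a, had a log2 fold change of 0.63, with Ezh1 at 0.58 and Ezh2 at -0.25, which place the same histone mark. Kdm6a, Ezh1 and Ezh2 each overlapped between the groups on the CPM scale. For Fxr2, 3 of 5 relatives and partners were higher (median 0.51), with Fxr1 at 0.82 (SE 0.67), Fmr1 at 0.56 (SE 0.41) and Cyfip2 at 0.51 (SE 0.91). Fxr1 and Cyfip2 overlapped between the groups on the CPM scale. The 10 polyamine genes beside Sat2 divided evenly (median 0.006), with the spermidine synthase Srm at -1.47, the rate-limiting enzyme Odc1 at -0.85 and the oxidase Paox at 0.86.

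The lists of both membrane proteins were examined last. For Efnb3, 5 of 7 B ephrins and receptors were lower (median -1.63), with Ephb1 (-3.52), Ephb2 (-3.0) and Ephb4 (-2.11) farthest from 0. These rested in part on single tumors, since Ephb2 had an FPKM of 10.4 in PBS 1 and at most 0.92 in the other 3. For Atp1b2, 4 of 5 tested sodium pump subunits had a higher fitted level, among them the beta subunit Atp1b1, with an FPKM of 2.60 in PBS 1, 4.71 in PBS 2, 10.35 in ATO 1 and 6.89 in ATO 2 (log2 fold change 1.49).

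Muscle and adipocyte markers moved with the groups, mesenchymal markers did so in part, and some other lists set single tumors apart. All 7 skeletal muscle markers were higher in both ATO tumors, with a summed FPKM of 5.29 and 105 in PBS 1 and PBS 2 and of 11925 and 893 in ATO 1 and ATO 2. All 6 adipocyte markers were higher as well, summing to 12.7 and 67.0 FPKM in PBS and to 233 and 1384 in ATO, with Lep, Plin1 and Retn at 0 in PBS 1 and Lep at 0 in PBS 2. Muscle markers were highest in ATO 1, where Atp1b2 was also highest, and adipocyte markers in ATO 2, where Acadvl was highest. Of the 7 mesenchymal markers 5 had a lower fitted level in ATO and 2 a higher one (median -1.20). On the CPM scale 2 of the 7 were lower in both ATO tumors (20.2% of all tested genes) and 0 were higher. These 2 were Vim (581, 812, 131 and 272 FPKM in PBS 1, PBS 2, ATO 1 and ATO 2) and Pdgfrb (98.6, 70.8, 36.2 and 23.7). Nerve and Schwann cell markers summed to between 2.49 and 35.4 FPKM, leukocyte markers to between 745 and 5406, and endothelial markers to between 72.4 and 904, with PBS and ATO overlapping in each. Osteoblast markers summed to 465 FPKM in ATO 1 and to between 4.69 and 12.7 in the other tumors. Erythroid markers summed to 17823 in PBS 2 and 9773 in ATO 1, against 269 in PBS 1 and 1001 in ATO 2, and epithelial markers to between 1.05 and 18.8. Trp53 was at 55.2 CPM in ATO 1, where muscle markers were highest, and at 57.4 CPM in ATO 2, where adipocyte markers were highest. The share of both tissues together in a tumor was not measured. The part of these cell types in the values of Trp53 and its neighbors was not tested.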

How the data were processed

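RNA-seq of 4 sarcomas was grouped by the treatment in the sample labels. The authors trimmed reads with cutadapt 1.9.1, aligned them to GRCm38 with HISAT2 2.0.1 and counted reads per gene with HTSeq 0.6.1, and they deposited the raw counts. Also deposited were FPKM values, which a division of each count by exonic length and total count matched within 0.005. Strand and multi-mapping settings are not given in the sources used here, so overlapping genes may share reads. Of 52073 identifiers also found in GENCODE M21 (GRCm38), only 1435 had equal positions in both, so positions were taken from M21 by gene identifier. No label says whether the tumors of a group came from separate mice, so the spread between them may be partly technical.

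The test was the quasi-likelihood F-test of edgeR 4.0.16 (R 4.3.3) on counts of 17188 genes kept by filterByExpr, with TMM factors between 0.822 and 1.11 and a Benjamini-Hochberg threshold of 0.05, and the scripts were tested on simulated data. The biological coefficient of variation was 62.5%. Each SE was derived from this test, as the absolute log2 fold change divided by the square root of F. It draws on variance shared across genes and is not the spread of a gene's own 4 values. Total counts of at least 15259695 put the limit allowed by a count of 0, which is 3 counts, at between 0.165 and 0.197 CPM, for counting error only. Alternatives were no filter, a replicate block, DESeq2 1.42.0, edgeR with DESeq2 size factors, each tumor left out, no mitochondrial genes, limma 3.58.1 on log2(FPKM + 1) or log2(FPKM + 0.1) with a mean FPKM of at least 1, and other windows around Trp53. Figures and summaries were made in Python 3.11.15. The genes, lists, windows and comparisons were chosen with earlier results of these data known. Genes named beyond the 10 are the 3 with the largest fold change in each direction within 500 kb, the 5 nearest to Trp53 in pattern, and the 3 with the largest absolute fold change in each list. Some genes that this rule names are not reported here. Windows of 300 bases at start sites came from RefSeq.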

Additional observations from a re-analysis of the deposited data

How the results depend on the processing

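The Trp53 log2 fold change stayed between -1.56 and -1.52 in all edgeR and DESeq2 fits, including those with a tumor left out, and was -1.73 and -1.80 in limma on log2(FPKM + 1) and log2(FPKM + 0.1), where the median of all genes moved to -0.23 and -0.28. In these 2 fits the neighbors' median was -0.50 and -0.52, and Trp53 minus that median was -1.23 with the former. With 1 tumor left out, the neighbors' median ranged from -0.50 (without PBS 2) to -0.17 (without ATO 2), and was -0.31 without ATO 1 and -0.19 without PBS 1. Trp53 minus that median ranged from -1.39 to -1.03. The median within 500 kb was -0.40 without the filter and -0.40 in limma on log2(FPKM + 0.1), and with 1 tumor left out it ranged from -0.55 (without ATO 2) to -0.024 (without PBS 2). It was 0.06, above 0, when only genes within 100 kb were taken, and below 0 in the other 15 alternatives. Calls were 754 with DESeq2 and 541 without the filter, and 0 in the other alternatives. The number of the 10 genes with a higher fitted level in ATO was 1 in both limma fits, in which Efnb3 was under the FPKM filter, and from 1 (without ATO 1) to 3 with a tumor left out, against 4. The count of genes lower in both ATO tumors was between 5 and 6 with a tumor left out, an alternative chosen after seeing the data in which the share of all tested genes was 34.5% to 35.5%. The cause of these shifts was not tested.

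Labels give both groups the numbers 1 and 2, but deviations of same-numbered tumors had a correlation of 5.0e-05, so the numbers were not taken as pairs. With the replicate block, 0 genes were called, the Trp53 log2 fold change was -1.53, the neighbors' median -0.05, Trp53 minus that median -1.49, the 500 kb median -0.15, and 4 of the 10 genes had a higher fitted level. Efnb3 and Sat2 had as few as 21 and 50 counts in a tumor, and their values also varied between tumors of a group; the part of depth was not tested.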
